A study of Mus musculus with 72 samples.

Results

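The liver holds several cell types beside the hepatocytes, and 34 genes that mark them were followed through the livers of 2 mouse cohorts. The genes were taken from a list by symbol, and each was read from the probe set annotated with that symbol alone, the one of highest mean where a gene had several. Of the 34 genes, 33 had such a probe set, out of 22180 genes on the array. The only probe set for Cd74, the invariant chain of antigen presentation, is shared with a microRNA gene and gave no value. The list held 11 macrophage markers, 9 lymphocyte markers, 7 stellate cell markers, 5 endothelial markers, and Ptprc and Cd74, which are shared by leukocytes.

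Gene expression was measured on 72 single-colour arrays, 1 liver RNA sample each. The SIRT6 cohort (strain label "129 mixed") held livers labelled wild type (WT) and livers labelled as liver-specific SIRT6 knockout (KO), and the SIRT1 cohort (C57BL/6) held WT livers and livers labelled as liver-specific SIRT1 knockout. Each genotype was sampled at zeitgeber time (ZT, counted in hours from lights on) 0, 4, 8, 12, 16 and 20 under 12 h of light and 12 h of dark, with 3 arrays a group and 24 groups in all. SIRT6 and SIRT1 are NAD-dependent deacylases whose share in daily rhythms of liver transcripts was the question of the series. The sources used here do not give the Cre line, sex or age. The labels do not say that replicates came from separate mice, so each p-value measures only how these samples spread, which may be technical. A liver-specific deletion, as the labels name it, does not say whether the cells marked here carried it.

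Kupffer cells are the resident macrophages of the liver: they sit inside the sinusoids and clear particles and complement-coated material from the portal blood. Lymphocytes and natural killer cells pass through the same sinusoids and are exchanged with the circulation. Stellate cells lie between hepatocytes and the sinusoidal endothelium, store vitamin A, and make collagen when activated, and the sinusoidal endothelium itself is a fenestrated scavenging lining.

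Levels are given as log2(intensity + 16), with intensity as deposited, and are compared only within a gene, since probe sets differ in how strongly they bind. Array medians in linear intensity ran from 43.9 to 52.9 (SIRT6 cohort) and from 44.4 to 53.8 (SIRT1 cohort). The 99th percentiles did not overlap, at 3217 to 3430 against 3440 to 3641, so levels were not compared between cohorts. The number of arrays limits the precision of every value. Replicates correlated at 0.948 or more (SIRT6 cohort) and 0.981 or more (SIRT1 cohort). The probe set of Sirt6 read 7.32 ± 0.18 (SD, n = 18) in the WT and 7.89 ± 0.10 (SD, n = 18) in the KO arrays of its cohort, and the 18 KO arrays did not overlap the 18 WT arrays. The probe set of Sirt1 read 8.74 ± 0.18 and 8.74 ± 0.11 (SD, n = 18 each) in its cohort. Where these probe sets lie relative to the deleted part is not given, so they do not check the deletion, the Sirt6 level ran against its label, and every direction below rests on the labels of the arrays.

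Promoter sequence is shown first for 4 Kupffer cell genes, because they include Clec4f, which varied apart from the other 3 between livers of the SIRT6 cohort. RefSeq promoters (build GRCm38.p6) were at hand for 23 of the 34 genes, and the 250 bases before the transcription start were searched on both strands for GAGGAA, the core bound by the myeloid and lymphoid factor PU.1 and its ETS relatives, in capitals here. The sequences run 5′ to 3′ on the gene's strand, at chr4:136886201-136886450 (minus strand) for C1qb, a chain of the complement starter C1q, at chrX:96293439-96293688 (minus strand) for Vsig4, a complement receptor of Kupffer cells, at chr1:120505025-120505274 (minus strand) for Marco, a scavenger receptor, and at chr6:83656117-83656366 (minus strand) for Clec4f, a glycan-binding lectin restricted to Kupffer cells in mice.
C1qb: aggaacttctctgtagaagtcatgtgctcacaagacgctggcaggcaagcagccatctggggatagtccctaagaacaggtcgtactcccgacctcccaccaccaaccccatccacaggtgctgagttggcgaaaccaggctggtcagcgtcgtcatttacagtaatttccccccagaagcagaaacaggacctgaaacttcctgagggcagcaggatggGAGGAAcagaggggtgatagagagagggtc
Vsig4: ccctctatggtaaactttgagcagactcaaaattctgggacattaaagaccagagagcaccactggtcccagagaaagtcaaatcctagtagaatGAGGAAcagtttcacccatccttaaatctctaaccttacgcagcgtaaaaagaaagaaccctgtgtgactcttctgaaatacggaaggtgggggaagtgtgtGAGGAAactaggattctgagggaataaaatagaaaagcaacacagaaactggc
Marco: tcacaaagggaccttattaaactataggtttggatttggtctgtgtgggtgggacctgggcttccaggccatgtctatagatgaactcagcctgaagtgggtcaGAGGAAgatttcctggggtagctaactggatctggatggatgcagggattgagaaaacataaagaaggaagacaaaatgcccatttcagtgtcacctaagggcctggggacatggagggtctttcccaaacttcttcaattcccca
Clec4f: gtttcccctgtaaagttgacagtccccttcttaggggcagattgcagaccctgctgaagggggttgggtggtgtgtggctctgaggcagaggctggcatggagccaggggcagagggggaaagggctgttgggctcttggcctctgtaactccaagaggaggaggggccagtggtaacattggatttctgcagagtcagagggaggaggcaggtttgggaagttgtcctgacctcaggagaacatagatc
The motif was present in 6 of the 8 macrophage promoters, in 3 of 6 lymphocyte promoters and in 1 of the 2 promoters of Ptprc, and in 0 of 5 stellate and 0 of 3 endothelial promoters, against 23.3% of all 32851 promoters of the same length. Of the macrophage genes, Clec4f and Timd4 had no match in this window. In the SIRT6 cohort Timd4 varied with the other macrophage genes. A link between the motif and how the genes vary was not tested. The 5-base CCAAT box was found in 6 of the 24 member promoters and in 33.8% of all, and the E-box CACGTG in 1 of 24 and in 6.0% of all. A match describes the letters and shows no binding.

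In the SIRT6 cohort, livers of the same group lay far apart in many of these genes. Among 13308 genes above a filter that left out the lowest 40% by mean level, 30 of the 34 members were present. The standard deviation between the 3 arrays of a group, pooled over 12 groups, had a median of 0.64 (log2) over those 30 members in the SIRT6 cohort, beside 0.17 over all genes. The same medians in the SIRT1 cohort were 0.28 and 0.16. Of the 30 members, 27 (90.0%) spread more widely in the SIRT6 cohort than in the SIRT1 cohort, beside 62.2% of all genes, and 13 (43.3%) at least 2-fold more widely, beside 10.7%. These are descriptions without a test. In whole tissue, fewer cells of a type and less RNA per cell cannot be told apart.

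**Figure D1:**
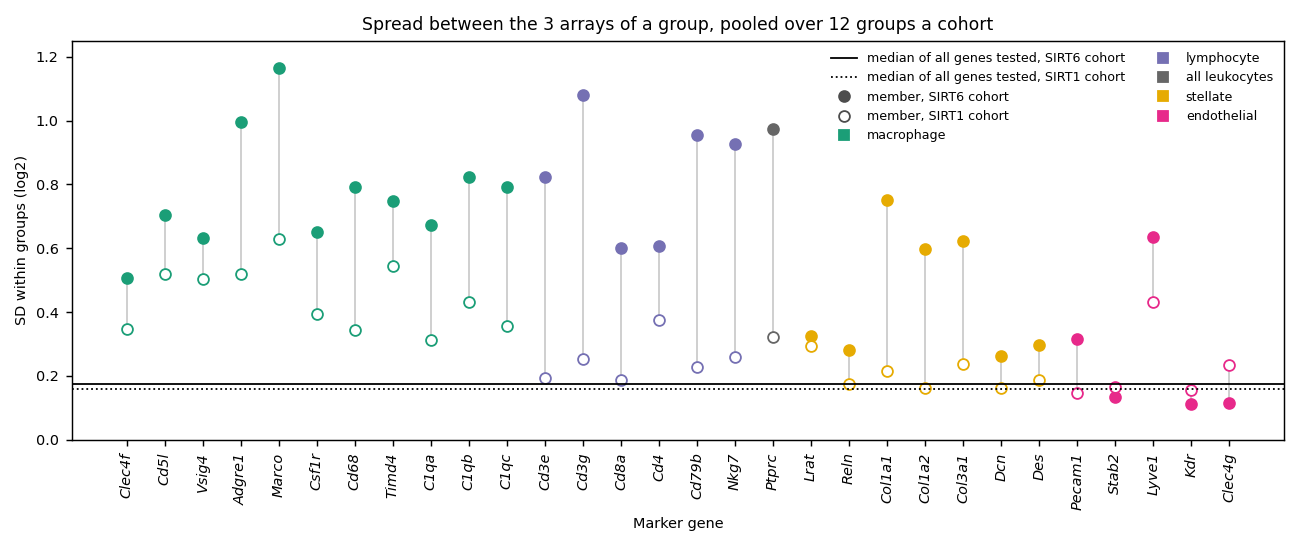
Standard deviation within groups (log2, y axis) for each of the 30 markers above the filter, coloured by class, with filled points for the SIRT6 cohort and open points for the SIRT1 cohort, each pooled over 12 groups of 3 arrays; the lines are the medians over all genes tested. Macrophage and lymphocyte markers and the fibrillar collagens stand well above the lines in the SIRT6 cohort, and Stab2, Kdr and Clec4g lie below them.

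The spread differed by class. Lymphocyte markers had a median within-group SD of 0.88 in the first cohort (SIRT6) and 0.24 in the second (SIRT1), with a median ratio of 3.89. Macrophage markers had 0.75 and 0.43, a median ratio of 1.86, so they were the most variable class in the SIRT1 cohort. Stellate markers had 0.33 and 0.19, and endothelial markers 0.13 and 0.16, a median ratio of 0.82. Both of these classes were split in the SIRT6 cohort. Col1a1, Col1a2 and Col3a1 had 0.75, 0.60 and 0.62, and the other stellate markers at most 0.33. Lyve1 had 0.63 and Pecam1 0.31, and Stab2, Kdr and Clec4g had 0.13, 0.11 and 0.11. Lyve1 was wide in the SIRT1 cohort too, at 0.43. The SIRT6 WT and KO arrays shared the wide spread, with medians over members of 0.70 and 0.61.

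The 3 WT livers of ZT12 in the SIRT6 cohort show the pattern within 1 group. Ptprc, the CD45 phosphatase on all leukocytes, read 10.26, 7.68 and 7.03 in replicates 1, 2 and 3. Adgre1, the classic surface antigen of mouse macrophages, read 10.78, 8.67 and 7.28. Marco read 9.38, 6.47 and 5.49, its widest range in any group. Replicate 1 was the highest in each of these, and replicate 3 the lowest. Cd3e, a chain of the T cell receptor complex, read 8.53, 5.66 and 6.20. Nkg7, a granule protein of natural killer and cytotoxic T cells, read 9.08, 6.33 and 5.90. Col1a1, which encodes the fibrillar collagen that activated stellate cells deposit, read 8.22, 6.36 and 5.80. Leukocyte and collagen markers thus stood highest in the same liver. The endothelial genes were split. Pecam1, the CD31 adhesion molecule of endothelium that some leukocytes also carry, read 9.06, 8.15 and 8.05, its widest range in any group, and Lyve1, a hyaluronan receptor, read 8.97, 8.08 and 7.43, both in the order of Ptprc. Kdr, the VEGF receptor, was nearly level at 9.50, 9.57 and 9.52. Stab2, a hyaluronan scavenger receptor, read 9.66, 9.71 and 9.63, and Clec4g, an endothelial lectin, read 11.20, 11.13 and 11.01.

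**Figure D2:**
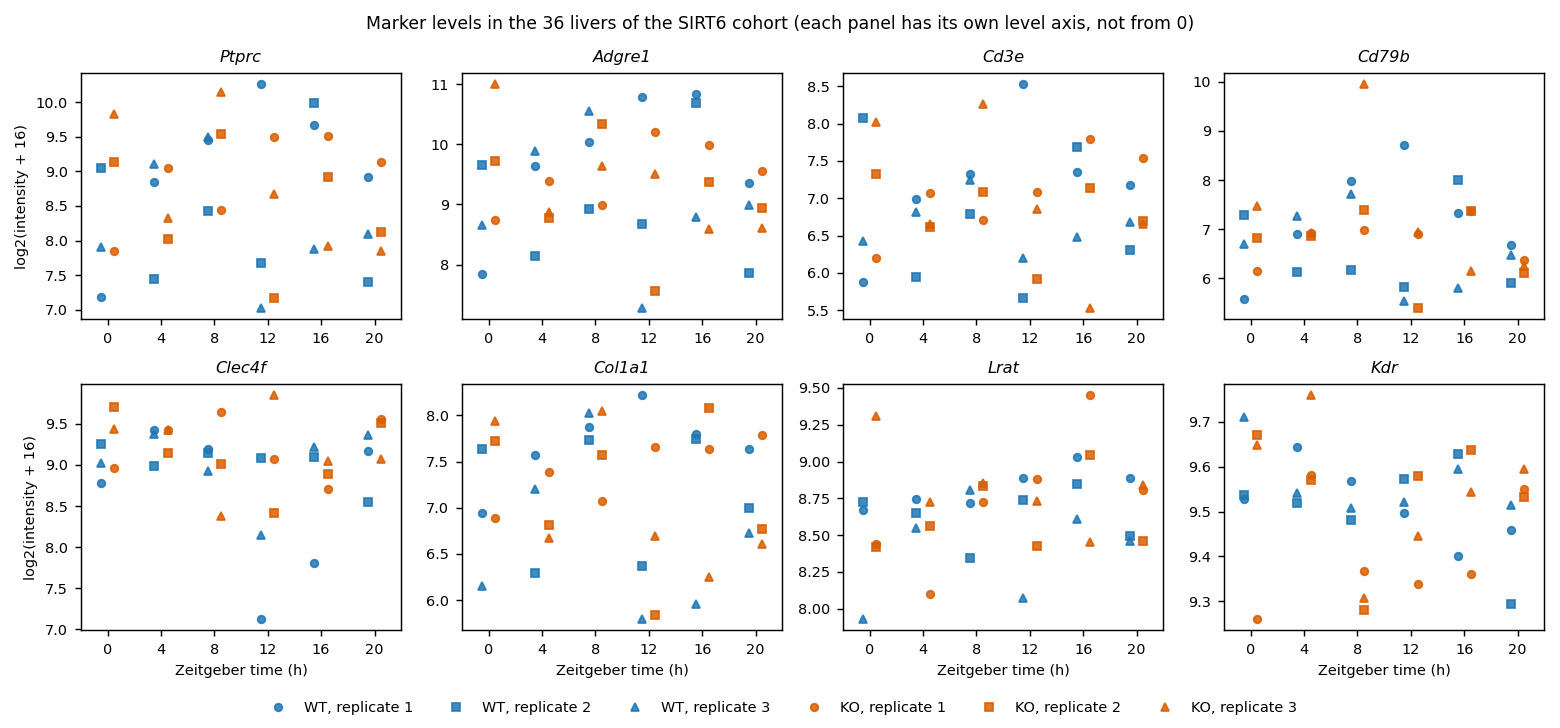
Level as log2(intensity + 16) (y axis, own range in each panel) against zeitgeber time for 8 markers in the 36 livers of the SIRT6 cohort, WT in blue and KO in orange, with the replicate number as the marker shape. Ptprc, Adgre1, Cd3e, Cd79b and Col1a1 each span more than 2 log2 units within the WT ZT12 group, Kdr stays between 9.26 and 9.76, and Clec4f has its lowest value, 7.13, in the WT ZT12 liver where Ptprc is highest.

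B cell markers were carried to their highest levels by 1 other liver, KO ZT8 replicate 3. Cd79b, a signalling chain of the B cell receptor, read 6.99, 7.40 and 9.95 in the 3 KO arrays of ZT8. Cd79a, its partner chain, read 5.95, 6.25 and 9.26. Ms4a1, the CD20 antigen, read 6.09, 6.36 and 9.64. The next highest of the 36 livers was WT ZT12 replicate 1 for all 3 genes, at 8.72 for Cd79b, 7.74 for Cd79a and 7.88 for Ms4a1. In the same KO group the T cell chain Cd3e read 6.71, 7.09 and 8.26, so replicate 3 was highest there as well. The macrophage marker Adgre1 read 8.99, 10.34 and 9.64, with replicate 3 between the others. Cd79a, Ms4a1 and Gzma, the granzyme A protease of cytotoxic cells, had means under the filter level of 6.00 and were left out of the tests over filtered genes. Gzma ranged only from 4.90 to 6.36 over the 36 arrays of the SIRT6 cohort.

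Macrophage markers moved together from liver to liver in both cohorts once group means were removed, and lymphocyte and stellate markers did so mainly in the SIRT6 cohort. The median correlation over pairs of macrophage markers was 0.945 among the 36 SIRT6 arrays and 0.839 among the 36 SIRT1 arrays. For pairs of lymphocyte markers the medians were 0.87 and 0.09, and for stellate markers 0.78 and 0.32. Pairs of 1 macrophage and 1 lymphocyte marker had medians of 0.79 and 0.18. The mean of the macrophage markers and the mean of the lymphocyte markers correlated at 0.86 (SIRT6 cohort) and 0.34 (SIRT1 cohort), those of lymphocyte and stellate markers at 0.91 and 0.17, and those of macrophage and stellate markers at 0.78 and -0.00. Pairs of endothelial markers had medians of 0.31 and 0.48. The endothelial mean correlated with the macrophage, lymphocyte and stellate means at 0.87, 0.79 and 0.81 in the SIRT6 cohort and at 0.51, 0.16 and 0.37 in the SIRT1 cohort. Other endothelial genes, from a background list, did not share the high values of the SIRT6 cohort. Their mean correlated with the same means at 0.32, 0.28 and 0.25 there, and at 0.68, 0.27 and 0.31 in the SIRT1 cohort. With the first component of within-group variation over all genes, the 5 endothelial genes of the SIRT6 cohort correlated at 0.96 (Pecam1), 0.67 (Lyve1), 0.49 (Clec4g), 0.25 (Stab2) and -0.06 (Kdr). These pairs share arrays, and the difference between the cohorts was not tested.

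The same axis ran through other genes. The first component of the variation within groups held 52.7% of the within-group variance over all genes for the SIRT6 livers and 17.99% for the SIRT1 livers. Ptprc correlated with it at 0.97 among the SIRT6 livers and at 0.54 among the SIRT1 livers (36 arrays each). In the SIRT6 cohort the mean of the listed monocyte and neutrophil genes above the filter ranged from 5.57 to 8.58. It correlated at 0.93 with the lymphocyte mean. The mean of the bile duct genes above the filter correlated with the stellate mean at 0.80. That of the hepatocyte genes above the filter, which ranged only from 12.41 to 12.62, correlated with it at -0.71. Red cell genes correlated at -0.03 with the stellate mean and at -0.18 with the macrophage mean. The part of these other cells, and of how the tissue was sampled, in the marker levels was not tested.

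Pairs of genes named for the comparison were tested by permuting arrays within groups 100000 times (two-sided, 15 pairs a cohort, Benjamini-Hochberg adjusted). C1qa and C1qb, chains of 1 protein complex, correlated at r = 0.98 (rho 0.97) in SIRT6 livers and r = 0.88 (rho 0.86) in SIRT1 livers, with permutation p = 1e-05, the smallest the permutations can give, and adjusted p = 3.7e-05 and 7.5e-05. Cd79a and Cd79b correlated at r = 0.92 (rho 0.90, adjusted permutation p = 3.7e-05) in the SIRT6 cohort and r = 0.12 (rho 0.09, adjusted permutation p = 0.71) in the SIRT1 cohort. Without the 2 arrays farthest from the median the value of the SIRT6 cohort was 0.89. Cd79a, with a mean under the filter level, ranged little in the SIRT1 cohort, from 5.135 to 6.039 (WT) and 5.287 to 6.17 (KO). The low r there may therefore say little about the pair. Cd3e and Cd8a, the coreceptor of cytotoxic T cells, gave r = 0.86 (rho 0.86, adjusted permutation p = 3.7e-05) and r = 0.09 (rho 0.08, adjusted permutation p = 0.75). These T cell genes ranged little in the SIRT1 cohort, Cd3e from 6.06 to 7.04 and Cd8a from 5.99 to 6.62.

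Fibrillar collagens and the resting cell markers Lrat and Reln correlated positively with each other among the SIRT6 livers, and among the SIRT1 livers Col1a1 ran against both. The 6 pairs of Lrat or Reln with a collagen gave r of 0.55 to 0.68 for SIRT6 livers and of -0.57 to 0.10 for SIRT1 livers (36 arrays each, not tested), the lowest being Col1a1 with Reln (-0.57) and with Lrat (-0.52). Col1a1 and Col3a1, both fibrillar collagens, correlated at r = 0.91 (rho 0.91, adjusted permutation p = 3.7e-05) in the SIRT6 cohort and at r = 0.55 (rho 0.52, adjusted permutation p = 0.021) in the SIRT1 cohort, where leaving out the 2 farthest arrays gave r = 0.46 and an adjusted permutation p of 0.069. Lrat, which esterifies vitamin A for storage, and Reln, the secreted protein reelin made by resting stellate cells, correlated at r = 0.70 (rho 0.65, adjusted permutation p = 0.0051) in the SIRT1 cohort and at r = 0.46 (rho 0.44, adjusted permutation p = 0.082) in the SIRT6 cohort. Col1a1 correlated with the B cell gene Cd79b at r = 0.76 (rho 0.73, adjusted permutation p = 0.00048) in the SIRT6 cohort, and at r = 0.10 (rho 0.09, adjusted permutation p = 0.75) in the SIRT1 cohort. In the SIRT1 cohort Col1a1 ran against the endothelial gene Stab2 at r = -0.61 (rho -0.44, adjusted permutation p = 0.021), which fell to -0.53 with an adjusted permutation p of 0.069 without the 2 farthest arrays. With the first component, Col1a1 correlated at 0.89 for SIRT6 livers and at -0.62 for SIRT1 livers, whereas Lrat correlated at 0.60 and 0.57.

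Clec4f stood apart from the other Kupffer cell genes in the SIRT6 cohort. It correlated with Vsig4 at r = 0.27 (rho 0.31, adjusted permutation p = 0.55) and with Cd5l, a secreted macrophage protein, at r = 0.21 (rho 0.31, adjusted permutation p = 0.55). The same pairs gave r = 0.91 (rho 0.89, adjusted permutation p = 7.5e-05) and r = 0.77 (rho 0.74, adjusted permutation p = 0.0021) in the SIRT1 cohort. The difference between cohorts was not tested. With the first component, Clec4f correlated at -0.22 in the SIRT6 cohort, where the other 10 macrophage markers lay between 0.79 and 0.94.

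The 2 lowest Clec4f values of the SIRT6 cohort were those of replicate 1 in the WT ZT12 and WT ZT16 groups. In the 3 WT livers of ZT12 Clec4f read 7.13, 9.09 and 8.15, while Vsig4 read 10.41, 9.93 and 8.53 and Timd4, a phosphatidylserine receptor of resident macrophages, read 9.60, 8.71 and 7.37. Replicate 1 was the lowest for Clec4f and the highest for the other 2 genes. In the WT livers of ZT16 Clec4f read 7.81, 9.10 and 9.22, and Vsig4 10.60, 11.00 and 9.83. Without the 2 arrays farthest from the median, r was 0.49 with Vsig4 (adjusted permutation p = 0.074) and 0.48 with Cd5l (adjusted permutation p = 0.086). Over the 18 KO arrays alone r was 0.60 with Vsig4 and 0.62 with Cd5l, and over the 18 WT arrays alone 0.03 and -0.08. With the first component removed, the 2 correlations were 0.76 and 0.72.

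**Figure D3:**
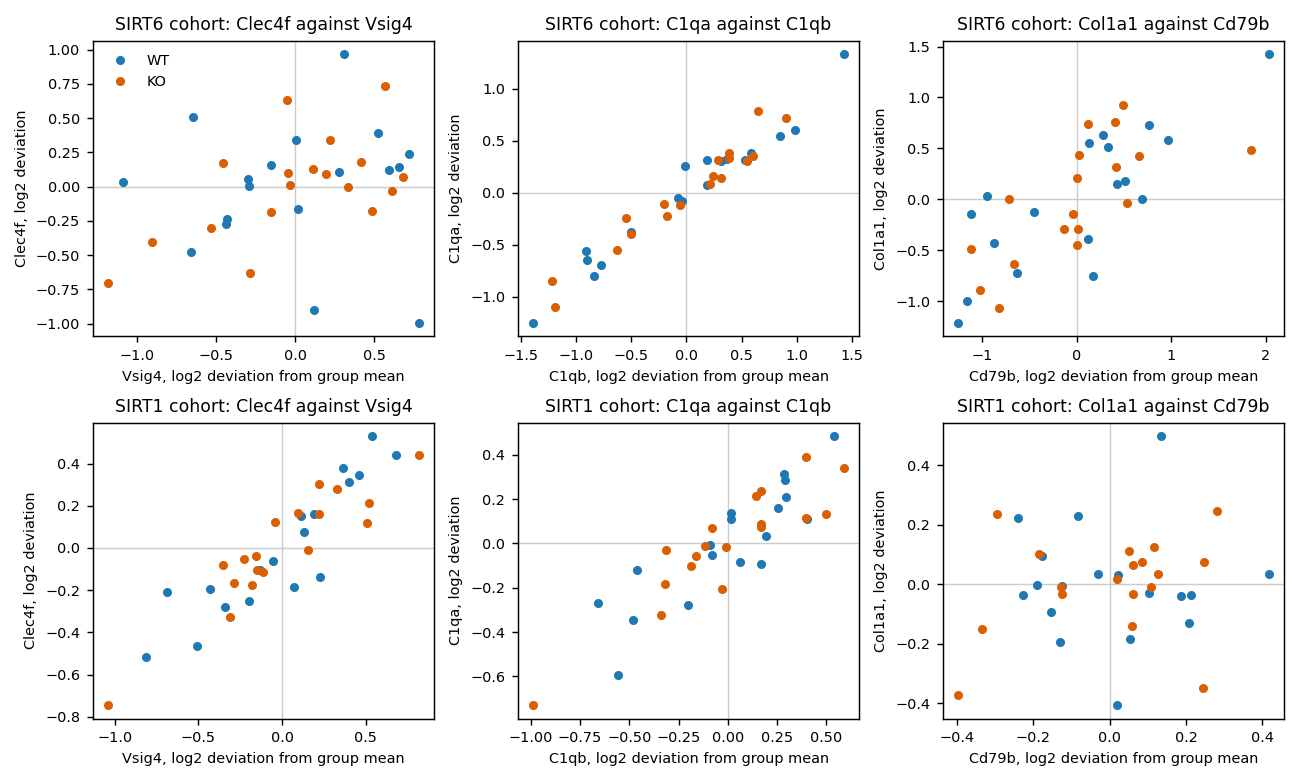
Deviation of each array from its group mean (log2) for 3 pairs of markers, SIRT6 cohort above and SIRT1 cohort below, WT in blue and KO in orange, 36 arrays a panel. C1qa follows C1qb in both cohorts (r = 0.98 and 0.88), Clec4f follows Vsig4 in the SIRT1 cohort (r = 0.91) and not in the SIRT6 cohort (r = 0.27), and Col1a1 follows Cd79b in the SIRT6 cohort (r = 0.76) and not in the SIRT1 cohort (r = 0.10).

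Outside the list, the genes nearest to each class were ranked by the lower of their correlations with the class mean in the 2 cohorts. Tyrobp, the DAP12 adaptor of myeloid receptors, followed the macrophage mean at 0.98 and 0.96 in the SIRT6 and SIRT1 cohorts, ahead of Pilra, Cd44, Igsf6 and Cfp, at 0.94 or above in both. For the macrophage mean, 1.19% of all genes outside the list reached 0.7 in both cohorts. The lymphocyte mean had Trpv2 (0.96 and 0.68), Cd7, Serpinb6b, Ccl5 and H2-DMa, with 0 genes outside the list at 0.7 or above in both. The stellate mean had Ddr2, a collagen receptor (0.77 and 0.77), Gabra3, Pdgfra, Rhoc and Olfml3. The endothelial mean had Plxnd1 (0.79 and 0.81), Cmtm3, Plekhg1, Eng and Csf1.

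Against this spread, no marker passed the test for a difference between KO and WT. In limma's moderated test of KO minus WT averaged over the 6 times, with Benjamini-Hochberg adjustment over all genes and a threshold of 0.05, 0 of 30 members were called in the SIRT6 cohort, where 6.61% of all genes were, and 0 of 30 in the SIRT1 cohort, where 2.27% were. At an unadjusted p under 0.05 the members numbered 0 and 1, the latter Marco, beside 19.3% and 18% of all genes. The count stayed at 0 with WT ZT12 replicate 1 and KO ZT8 replicate 3 of the SIRT6 cohort left out, a choice made after seeing the data.

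In the SIRT6 cohort the macrophage markers had a higher mean in the KO arrays for 11 of 11, with a median of 0.18 (log2) and a range of 0.07 to 0.31, beside a median of 0.00 and 51.7% of genes higher over all genes tested. Because these genes move together from liver to liver, 11 genes are not 11 observations. Clec4f had WT values with a lowest, median and highest of 7.13, 9.10 and 9.42 and KO values of 8.38, 9.11 and 9.85. The groups overlapped, with 8 of 18 KO arrays above every WT array. The difference was 0.31 ± 0.16 (SE, n = 18 each, limma adjusted p = 0.30). Marco had WT values of 5.49, 7.92 and 9.71 and KO values of 6.01, 8.27 and 9.98, a difference of 0.31 ± 0.37 (SE, n = 18 each), with a 95% interval from -0.44 to 1.07. Ptprc differed by 0.19 ± 0.31, with an interval from -0.44 to 0.82. Among lymphocyte markers Cd4, the coreceptor of helper T cells, differed most, by 0.28 ± 0.19 (limma adjusted p = 0.48). The stellate markers lay between 0.01 and 0.12 and the endothelial markers between -0.03 and 0.02. The interval for Kdr, -0.10 to 0.05, was far narrower than that for Marco.

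In the SIRT1 cohort the macrophage markers had a lower mean in the KO arrays for 11 of 11, with a median of -0.10 and a range of -0.45 to -0.01, beside 49.1% of all genes with a higher mean. With array medians centred the sign of Clec4f turned, to 0.03. Marco had WT values of 7.05, 7.83 and 9.90 and KO values of 6.94, 7.50 and 8.33. The groups overlapped, and 16 of 18 KO arrays lay below the WT mean of their time. The difference was -0.45 ± 0.19 (SE, n = 18 each, limma p = 0.024, adjusted p = 0.20). The 2 highest WT livers for Marco were ZT12 replicate 3 at 9.90 and ZT8 replicate 3 at 9.67, and no KO liver exceeded 8.33. Adgre1 differed by -0.30 ± 0.16 (limma adjusted p = 0.32) and Cd4 by -0.21 ± 0.12 (adjusted p = 0.33). The largest stellate difference was Col1a1, 0.08 ± 0.07, and the largest endothelial difference was Clec4g, -0.08 ± 0.07.

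**Figure D4:**
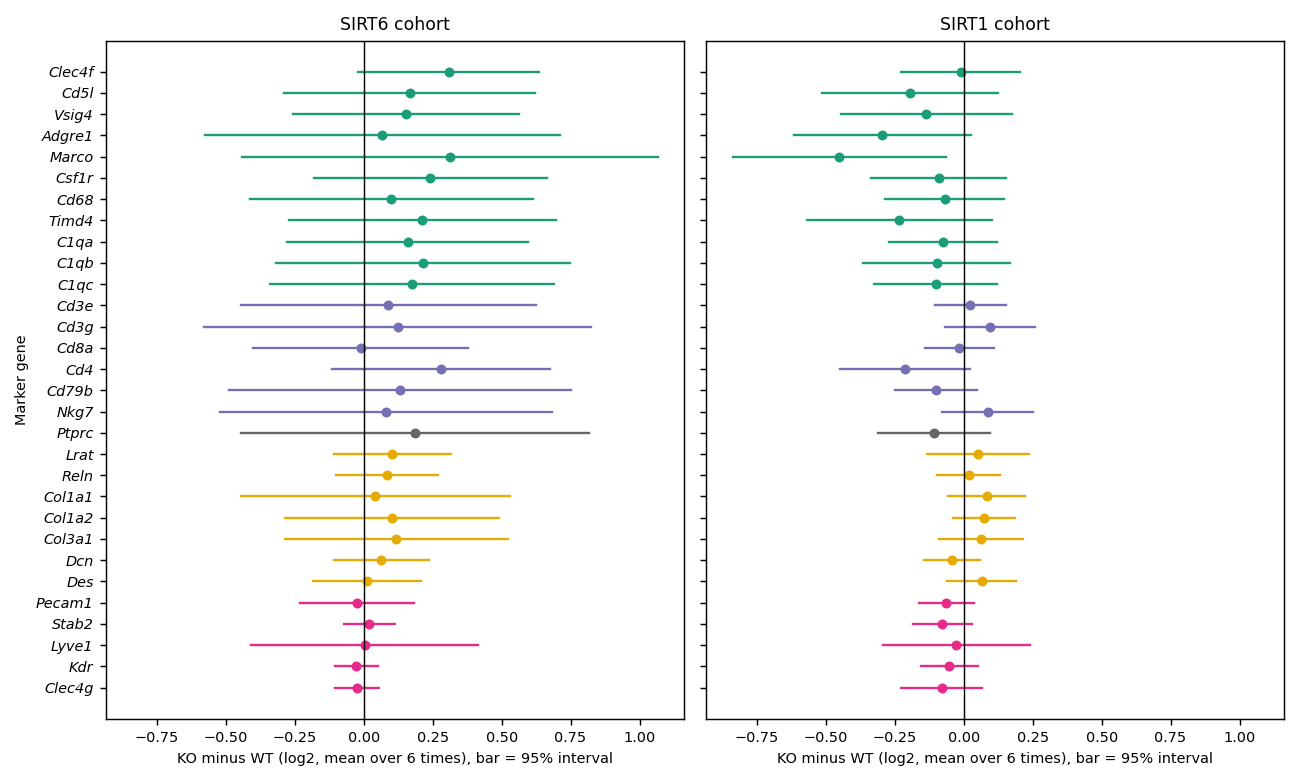
KO minus WT (log2, averaged over the 6 times, x axis) with its 95% interval for each of the 30 markers above the filter, SIRT6 cohort on the left and SIRT1 cohort on the right, coloured by class as in the plot of spread. Every interval in the SIRT6 cohort includes 0, and in the SIRT1 cohort every one but that of Marco (-0.84 to -0.07).

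The 2 knockout effects were also compared with each other over all 72 arrays. Again 0 of 30 members were called, where 5.76% of all genes were. At single times 0 members were called in either cohort, where 0.473% and 0% of all genes were. The smallest p-value at a single time belonged to Col1a2, the second chain of type I collagen, in the SIRT1 cohort at ZT4, where KO exceeded WT by 0.48 (limma adjusted p = 0.33). At the same time Col3a1 read 7.57, 7.57 and 7.44 in the WT and 8.02, 8.10 and 8.33 in the KO livers, without overlap, a difference of 0.62.

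In the SIRT1 cohort 7 markers, lymphocyte, stellate and endothelial genes, passed a test for a daily rhythm over both genotypes. In its WT arrays alone 0 of 30 passed, where 18.3% of all genes did. A 24 h cosine was fitted to each cohort with both genotypes together, amplitude being the fitted peak minus trough. In the SIRT6 cohort 0 of 30 members passed the moderated F test, where 26.4% of all genes did. In the SIRT1 cohort 7 of 30 did, where 38.8% of all genes did. The 7 were 2 of 6 lymphocyte markers tested, 4 of 7 stellate markers and 1 of 5 endothelial markers, with 0 of 11 macrophage markers.

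Cd4 had the largest amplitude. Its mean in the SIRT1 cohort, 5.99 in the WT and 5.78 in the KO arrays, lay under the filter level of 6.00, which it passed over both cohorts together. It passed the test with no filter set as well. In the SIRT1 cohort its WT livers read 6.73, 6.41 and 6.21 at ZT0 and 5.66, 5.13 and 5.59 at ZT12, and its KO livers 6.54, 6.42 and 6.11 against 5.37, 5.15 and 4.86. The livers of ZT0 did not overlap those of ZT12 in either genotype. The amplitude was 0.97 ± 0.16 (SE, 36 arrays) with a peak at ZT0.54 (limma adjusted p = 2.6e-05). Cd3e, carried by all T cells, had an amplitude of 0.11 ± 0.09 (adjusted p = 0.63) and Cd8a one of 0.06 ± 0.08, so neither passed. Cd4 in the SIRT6 cohort had an amplitude of 0.04 ± 0.27.

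Cd79b, the B cell receptor chain, peaked in the light phase of the SIRT1 cohort. It read 6.46, 6.68 and 6.60 in the WT and 6.93, 6.42 and 7.10 in the KO livers of ZT4, and 6.20, 6.09 and 5.91 and 6.09, 6.09 and 5.90 in those of ZT20. All 6 livers of ZT4 stood above all 6 of ZT20. The amplitude was 0.59 ± 0.12 with a peak at ZT4.6 (limma adjusted p = 0.00035). Of 9 tested genes of a list of 18 other lymphocyte genes, 2 passed, where 38.8% of all genes did. Both were of B cells: Ighm, the IgM heavy chain, at 0.94 ± 0.25 with a peak at ZT3.3 (adjusted p = 0.0081), and Cd22, an inhibitory B cell receptor, at 0.41 ± 0.09 with a peak at ZT4.7 (adjusted p = 0.0013). Ms4a1, tested only where no filter was set, had an amplitude of 0.44 ± 0.11 with a peak at ZT4.0 (adjusted p = 0.011), and Cd79a one of 0.20 ± 0.10 (adjusted p = 0.38). In the SIRT6 cohort Cd79b had the larger amplitude of 0.85, but with an SE of 0.41 and an adjusted p of 0.28, and without WT ZT12 replicate 1 and KO ZT8 replicate 3 it was 0.43.

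Of the stellate markers, Lrat, Dcn, Reln and Col3a1 passed in the SIRT1 cohort. Lrat had means from 8.77 at ZT12 to 9.27 at ZT20, with an amplitude of 0.51 ± 0.13 and a peak at ZT20.7 (limma adjusted p = 0.0053). Dcn, the matrix proteoglycan decorin, had an amplitude of 0.30 ± 0.07 with a peak at ZT1.2 (adjusted p = 0.0031), and Reln 0.26 ± 0.08 with a peak at ZT3.4 (adjusted p = 0.031). Col3a1 had its highest mean at ZT4, 7.84, and an amplitude of 0.45 ± 0.13 with a peak at ZT5.3 (adjusted p = 0.020). Reln lost its call without KO ZT4 replicate 2 (adjusted p = 0.070) or KO ZT16 replicate 3 (0.062), and Col3a1 without KO ZT4 replicate 3 (0.051). With array medians centred Reln lost it too (limma adjusted p = 0.061). A limma F test over the 6 times, without a cosine, did not call Reln (adjusted p = 0.11) and called Col1a2 (adjusted p = 0.018). Of 16 tested genes of a list of 18 other stellate genes, 8 passed, where 38.8% of all genes did. Among the 8 were Col4a1, a basement membrane collagen (0.49 ± 0.08, peak ZT3.1), Pdgfrb, a growth factor receptor (0.45 ± 0.10, peak ZT2.1), Ngfr, a neurotrophin receptor (0.63 ± 0.10, peak ZT0.17), and Rgs5 (0.49 ± 0.14, peak ZT20.4). Ngfr also passed in the SIRT6 cohort, at 0.56 ± 0.10 with a peak at ZT1.2, where 2 of those 16 genes did, beside 26.4% of all genes.

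Clec4g was the endothelial member that passed in the SIRT1 cohort, with an amplitude of 0.40 ± 0.11 and a peak at ZT22.1 (limma adjusted p = 0.0082). Its KO livers read 11.29, 10.48 and 10.11 at ZT12, and replicates 2 and 3 were the lowest of all 36 livers for it. Those 2 livers were also the lowest of the cohort for Dcn, at 11.11 and 10.82, and for Lrat, at 8.45 and 8.34. Without both, the same 7 members passed, with amplitudes of 0.26 for Clec4g, 0.21 for Dcn and 0.44 for Lrat. Ehd3, an endothelial trafficking protein from a list of 20 other endothelial genes, passed in both cohorts, at 0.44 ± 0.09 with a peak at ZT22.1 in the SIRT1 cohort and 0.36 ± 0.06 with a peak at ZT20.4 in the SIRT6 cohort. That list had 7 of 20 tested genes past the threshold in the SIRT1 cohort and 4 of 20 in the SIRT6 cohort, beside 38.8% and 26.4% of all genes.

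**Figure D5:**
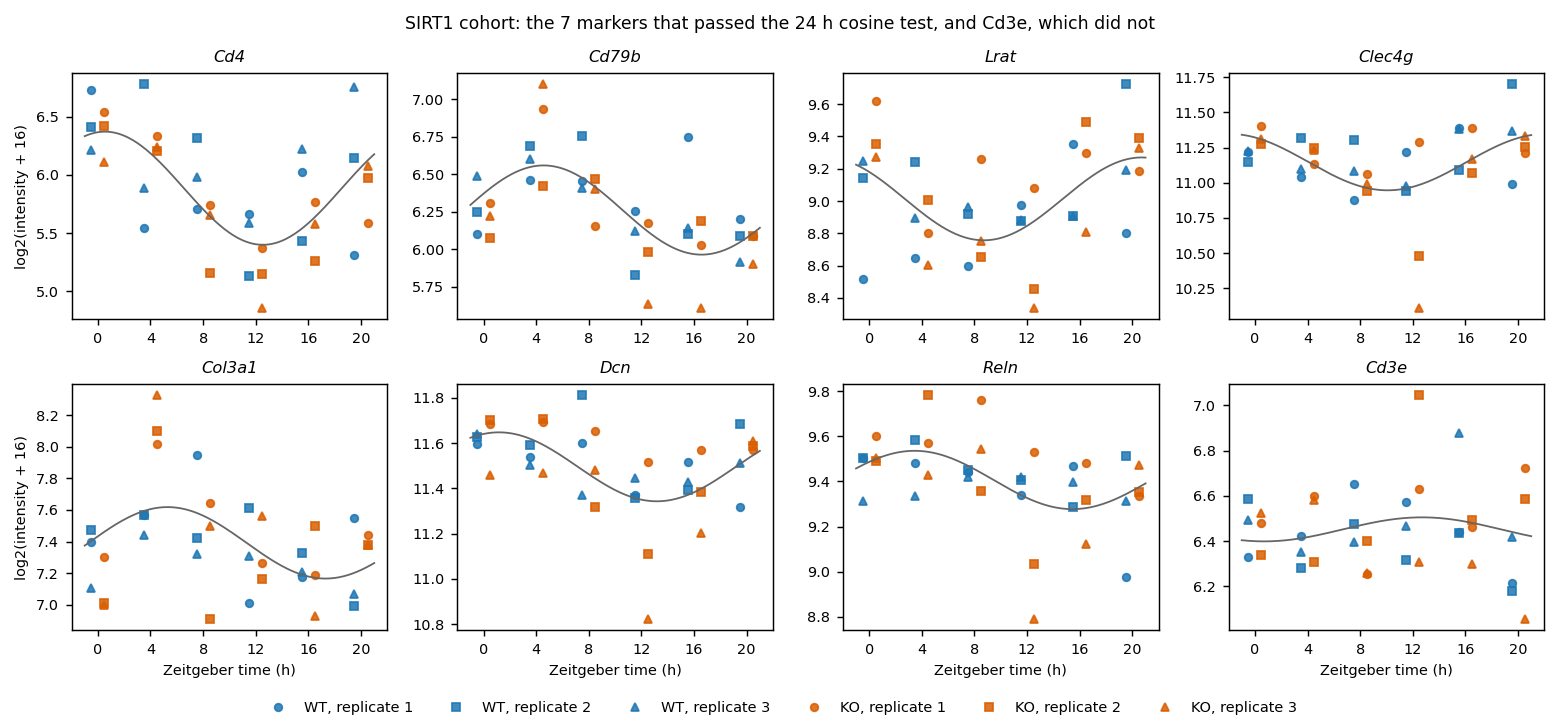
Level as log2(intensity + 16) (y axis, own range in each panel) against zeitgeber time in the 36 livers of the SIRT1 cohort, WT in blue and KO in orange, with the fitted 24 h cosine as a line, for the 7 markers that passed the test and for Cd3e, which did not. Cd4 is high at ZT0 and low at ZT12 in both genotypes, and Cd79b is highest at ZT4.

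Among macrophage markers the largest amplitude in the SIRT1 cohort was that of Marco, 0.53 ± 0.26 (limma adjusted p = 0.23), and in the SIRT6 cohort that of Clec4f, 0.64 ± 0.22 with a peak at ZT1.2 (adjusted p = 0.074). Without KO ZT12 replicate 3, Clec4f passed at 0.75 (adjusted p = 0.023), so 1 array decides that call. Of a list of 20 other macrophage genes, 3 passed in the SIRT1 cohort, where 38.8% of all genes did. The 3 were Id3, a transcription regulator (0.73 ± 0.16, peak ZT20.0), Lyz2, the myeloid lysozyme (0.59 ± 0.17, peak ZT4.3), and Nr1h3, the oxysterol receptor LXR alpha (0.21 ± 0.05, peak ZT20.2).

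With each genotype fitted alone, 0 members passed in the SIRT1 WT arrays (18.3% of all genes), 5 in the SIRT1 KO arrays (23.2%), and 0 in the SIRT6 WT (10.1%) and SIRT6 KO arrays (10.6%). The 5 were Cd4, Cd79b, Lrat, Dcn and Clec4g. Without KO ZT12 replicates 2 and 3 the 5 became 3. Cd4 had amplitudes of 0.74 ± 0.26 in the WT and 1.20 ± 0.15 in the KO arrays (n = 18 each), and Lrat 0.34 ± 0.17 and 0.71 ± 0.17. A call in one genotype is not a difference between them: the test of genotype by cosine called 0 of 30 members in either cohort, where 0.00751% of all genes (SIRT6 cohort) and 0% (SIRT1 cohort) were called, and 0 members had an unadjusted p under 0.05, beside 8.25% and 7.26% of all genes.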

How the data were processed

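The authors deposited linear intensity per probe set, made with Affymetrix Expression Console 1.1.1 and PLIER 2.0 per the submitters' processing notes (settings and build: not given in the sources used here). Of 41345 probe sets, 23521 carried 1 gene symbol and 1814 several. Values were taken as log2(intensity + 16). Groups came from the sample titles. A limma fit (version 3.58.1, under R 4.3.3) to 13308 genes used the 12 groups of a cohort and its 36 arrays, with a trend in the moderation, with Benjamini-Hochberg adjustment and a threshold of 0.05. Correlations used values with group means removed. The genes, lists and tests were chosen with earlier results of these data known. Genes named are those past a threshold, per class those of highest level, largest effect, amplitude or spread, the nearest genes outside the list, and up to 4 called genes of each other list. Lists of macrophage, monocyte and neutrophil, lymphocyte, antigen presentation, stellate, endothelial, bile duct, hepatocyte, red cell, acute phase and cell cycle genes served as background. For pairs with Saa1 no value was analysed. Steps were tested on simulated data. Alternatives were other normalizations, pseudocounts, filters, blocks, weights and arrays left out.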

Additional observations from a re-analysis of the deposited data

How the results depend on the processing

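The number of markers called for KO minus WT averaged over the times, for genotype by cosine and for the difference between the knockouts was 0 under every alternative run, each array left out in turn included. For that difference, all alternatives but quantile normalization were chosen after seeing the data. At single times it rose in the SIRT6 cohort to 2 with array weights and 3 with the first component as a covariate, and in the SIRT1 cohort to 1 with array weights. The SIRT6 cosine count was 1 (Cd79b) with that covariate, and 0 to 1 with an array left out. The SIRT6 KO count was 1 with medians centred, with the lowest 60% left out and with the covariate, and 0 to 1 with an array left out. The SIRT1 cosine count ranged from 5 to 8 over the other alternatives and 6 to 8 with an array left out. The SIRT1 WT count was 1 with array weights and with the covariate, and 0 to 1 with an array left out. The SIRT1 KO count was 2 at a threshold of 0.01, 3 without KO ZT12 replicates 2 and 3 (chosen after seeing the data) and 3 to 7 with 1 array left out. KO minus WT of Clec4f in the SIRT1 cohort turned to 0.032 with medians centred and 0.063 without those 2 arrays, and lay between -0.054 and 0.051 with an array left out, and Clec4g turned to 0.031 without those 2 arrays. Replicate numbers are shared by the groups without a stated meaning. Deviations of same-numbered WT and KO arrays of a time correlated at a median of 0.25 in the SIRT6 cohort (11 of 18 pairs over 0.1) and 0.03 in the SIRT1 cohort (6 of 18), against -0.09 and 0.02 for differently numbered arrays. The WT array correlated best with its own number in 10 and 6 of 18 cases. With means of 3 arrays removed, differently numbered pairs tend to fall below 0 where same-numbered pairs rise above it. That not every pair exceeded 0.1 cannot decide on pairing, because same-numbered SIRT6 pairs ran from -0.36 to 0.74. The main fits and the permutations treated the arrays as unpaired, and their p-values would not allow for a shared source. A shared source in the SIRT6 cohort was not tested. With the replicate block the counts were 0 for KO minus WT in both cohorts, 7 for the SIRT1 cosine and 6 in the SIRT1 KO arrays.

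In the SIRT6 cohort, removing the first component raised r of Clec4f with Cd5l to 0.72 and with Vsig4 to 0.76, past the threshold, lowered that of Cd79b with Col1a1 to 0.018, and turned Cd79b with Stab2 to -0.014, Col1a1 with Stab2 to -0.51 and Clec4f with Alb to -0.019. WT arrays alone gave -0.083 for Clec4f with Cd5l and -0.25 for Col1a1 with Stab2. KO arrays alone gave 0.53 for Stab2 with Lyve1 and 0.094 for Clec4f with Col1a1. Without the 2 farthest arrays, Lrat with Reln passed at 0.52, Stab2 with Lyve1 was 0.014, Clec4f with Col1a1 was 0.0094 and Col1a1 with Stab2 was -0.043. Centred medians gave -0.15 for Cd79b with Stab2 and -0.36 for Col1a1 with Stab2, which was -0.0003 with a pseudocount of 1 and -0.19 with quantile normalization.

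In the SIRT1 cohort, WT arrays alone gave 0.63 for Clec4f with Cd5l, 0.51 for Lrat with Reln and -0.70 for Col1a1 with Stab2, no longer past the threshold, -0.035 for Cd79b with Col1a1 and -0.018 for Cd79b with Stab2. KO arrays alone gave 0.28 for Col1a1 with Col3a1 and -0.54 for Col1a1 with Stab2, both short of it. Without the 2 farthest arrays, Col1a1 fell short of it with Col3a1 at 0.46 and with Stab2 at -0.53, and Cd79b with Col1a1 was -0.046. Without the first component, Clec4f with Cd79b passed at 0.49, Col1a1 with Stab2 fell short at -0.31, Cd3e with Cd8a was -0.079 and Clec4f with Alb -0.0059. Cd3e with Cd8a was -0.040 with medians centred and -0.032 with quantile normalization, which also gave -0.013 for Cd79b with Col1a1 and -0.22 for Clec4f with Alb. Most of these turns concern correlations near 0, and the cause was not tested.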

Other observations

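Of the background lists, only Emcn passed the averaged test of KO minus WT in the SIRT6 cohort, and only Apcs and Serpina1a in the SIRT1 cohort. Over all genes, 6.61% and 2.27% passed. Emcn, the endothelial sialomucin endomucin, was lower in the SIRT6 KO arrays, at 6.95 ± 0.30 against 7.20 ± 0.21 in the WT arrays (SD, n = 18 each), a difference of -0.25 ± 0.08 (SE, limma adjusted p = 0.042), with 15 of 18 KO arrays below the WT mean of their time. Apcs, the pentraxin serum amyloid P, was lower in the SIRT1 KO arrays, at 8.72 ± 0.24 against 9.13 ± 0.43 (SD, n = 18 each), a difference of -0.41 ± 0.08 (limma adjusted p = 0.0096), in 18 of 18 arrays. Serpina1a, an antitrypsin gene of hepatocytes, differed by -0.12 ± 0.03 there (limma adjusted p = 0.045). None of the 9 tested antigen presentation genes and none of the 4 tested cell cycle genes passed in either cohort in the averaged test. Lists this small cannot show a share below that of all genes.

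In the within-group deviations, the probe set of Sirt6 correlated at 0.81 with Ptprc in the SIRT6 cohort and at 0.57 in the SIRT1 cohort (36 arrays each). The mean of the acute phase genes above the filter correlated with the macrophage mean at 0.77 and 0.34, and that of the cell cycle genes above it at 0.77 and 0.12.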
